A study of Rattus norvegicus with 24 samples.

Results

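Rat myocardium taken 40 weeks after surgery for mitral regurgitation was compared with myocardium taken 20 weeks after it. The comparison used 10 of the 24 libraries of the study, 5 at each time, chosen by the time point in the labels. All 10 came from Sprague-Dawley rats whose mitral leaflet had been perforated, which makes the valve leak (mitral regurgitation, MR). The Sham libraries (n = 5), from rats operated on without perforation, were all taken at 2 weeks and serve here as a level beside the comparison, as do the MR libraries at 2 weeks (n = 4) and 10 weeks (n = 5). No Sham library later than 2 weeks was analysed here, so the duration of MR, ageing and the handling of each set of samples cannot be told apart. Chamber of the heart, sex, age, batch and animal are not among the labels. The p-values therefore measure the spread between these libraries, which may in part be technical.

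Mitral regurgitation returns part of each stroke to the left atrium and so loads the heart with volume, under which the left ventricle dilates and its wall grows. Cardiac myocytes contract through sarcomeres, are triggered by calcium released from the sarcoplasmic reticulum, and burn mainly fatty acids in their many mitochondria. Endothelial cells, fibroblasts, pericytes and immune cells share the tissue with them. In RNA from whole tissue, fewer cells of a type and less RNA per cell cannot be told apart.

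Each value is a normalised count: the reads on a gene divided by a factor for its library. The libraries held 9.08 to 10.0 M reads on listed genes at MR 20 weeks, 8.81 to 10.9 M at MR 40 weeks and 7.69 to 9.70 M in Sham. Myh6 or Myh7, the alpha and beta myosin heavy chains of heart muscle, was the most read gene in each of the 10 MR libraries. Of the atrial markers, the atrial light chain Myl7 measured 0.929 to 4.31 at 20 weeks and 0.881 to 1.81 at 40 weeks. Other atrial markers, some of which rose, are given below. The tables for the 2 times shared 10192 genes, of which 9904 had a mean normalised count of at least 1 over the 10 MR libraries and were tested. Of the genes called below, 56 rises had a mean under 1 at 20 weeks and 45 falls a mean under 1 at 40 weeks, so they were tested only through the group in which they were high; Arrb1, Tbx20, Esrrb and Bcl2, named below, are among these rises. A difference below is the mean log2(normalised count + 1) at MR 40 weeks minus that at MR 20 weeks, given with its standard error. Tests were made with limma, two-sided, on 5 libraries a group, and an adjusted p (Benjamini-Hochberg, over all tested genes) below 0.05 counted as a call.

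At MR 40 weeks 4109 genes (41.5% of those tested) differed from MR 20 weeks: 2233 rose (22.5%) and 1876 fell (18.9%), with a median difference of 0.68 among the rises and -0.57 among the falls. At an unadjusted p under 0.05 the count was 4973 (50.2%). Changes of 2-fold or more were mostly rises, 538 (5.43%) against 110 (1.11%). The values of the groups did not overlap in 2300 genes (23.2%), with every MR 40-week library above every MR 20-week library in 1283 (13%) and below in 1017 (10.3%). The median difference over all tested genes was 0.00 after each library had been scaled by its median ratio to the gene-wise geometric mean. On the scale of the deposited tables that median was -0.13, and 37.6% of the calls were rises against 54.3% here, so the split between rises and falls depends on the scaling.

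In a principal component analysis of the 15 libraries of the joined tables, the first component held 55.7% of the variance. The MR 40-week libraries lay at 17.2 to 47.0 on it, the MR 20-week libraries at -35.6 to 9.29 and the Sham libraries at -37.7 to -3.54. Replicate 5 was the MR 20-week library nearest to the later group, and replicate 3 the MR 40-week library nearest to the earlier one. The pattern recurred gene by gene: MR 20-week replicate 5 was the highest of its group in 12 of the 12 largest rises, and MR 40-week replicate 3 the lowest of its group in 11 of them.

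**Figure D1:**
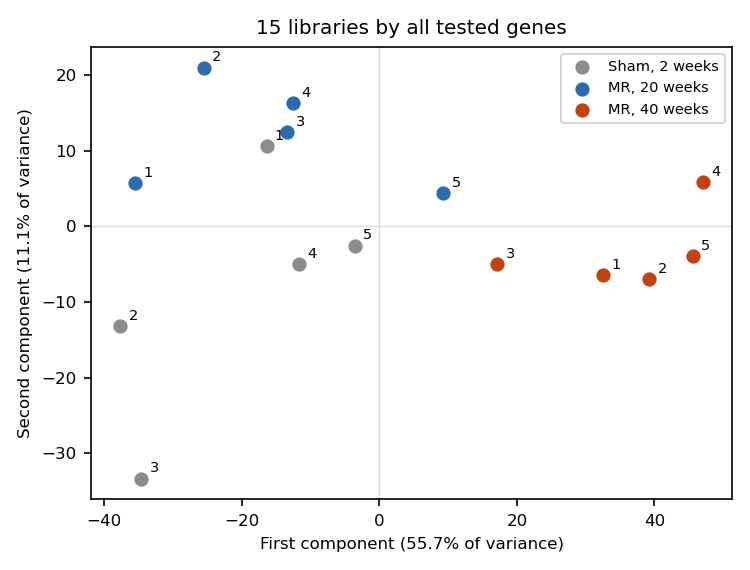
First against second principal component of the 15 libraries of the joined tables, computed on log2(normalised count + 1) and numbered by replicate. The 5 MR 40-week libraries lie at 17.2 or more on the first component, and every other library lies at 9.29 or less.

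Rises and falls were spread unevenly over genes of different genomic span, the distance from the start to the end of the gene in the tables. In the decile of genes with the shortest spans (median 2.46 kb), 9.28% rose and 39.1% fell, and the median difference was -0.28. In the decile with the longest spans (median 200.7 kb), 41.7% rose and 7.47% fell, and the median difference was 0.28. In each library, the deviation of each gene from its mean over the Sham libraries was taken on the log2 scale. The index of a library was the median deviation of the longest decile minus that of the shortest. It was 0.27 to 0.74 at MR 40 weeks, lowest in replicate 3, and -0.15 to 0.11 at MR 20 weeks. In Sham, the reference, it was centred by construction and ran from -0.10 to 0.12. At MR 2 weeks it was -0.01 to 0.14 and at MR 10 weeks -0.17 to 0.01. The 5 MR 40-week libraries thus lay above the other 19. Since span moved with the comparison, the fit was repeated after each library's trend along span had been removed, and such values are called span-adjusted. That fit called 1985 rises and 1759 falls, kept 72.4% of the calls in the same direction and turned none round. The part of span in the changes of the gene groups below was not tested further.

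**Figure D2:**
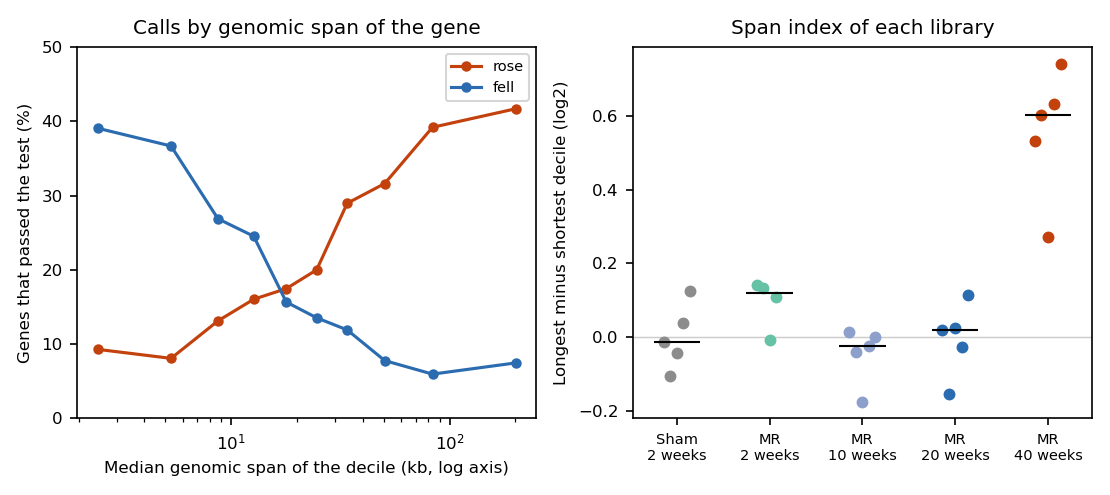
Left, the share of genes that rose or fell (vertical axis, %) in each decile of genomic span (horizontal log axis, kb). Right, the log2 index of long against short genes for each of the 24 libraries, with the group median as a bar; the MR 40-week points lie between 0.27 and 0.74 and the others between -0.17 and 0.14.

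The largest rises, among genes whose groups did not overlap and whose mean level was at least the median of those tested, held a cell cycle regulator, matrix and growth factor proteins, and parts of the myocyte's membrane and metabolism. In 8 of the 12 the 20-week mean was below that median level (11.96), so these passed the level filter only through the 40-week libraries. Ccnd2, which encodes cyclin D2 of the step from G1 to S phase (chr4:159674885-159697208, rn6), stood at 1.54, 1.47, 3.27, 2.93 and 10.9 in MR 20-week replicates 1 to 5. At MR 40 weeks it stood at 45.3, 43.5, 14.2, 47.1 and 42.7, a difference of 3.14 ± 0.41 (adjusted p = 2.8e-04). MR 40-week replicate 3 was far below the other 4, yet above every library of the earlier group and above the Sham range of 1.31 to 6.39. Thbs1, the matrix glycoprotein thrombospondin 1 (chr3:109862120-109873467), went from 4.0, 3.07, 3.52, 5.14 and 14.9 to 38.8, 45.9, 54.1, 38.1 and 41.1, a difference of 2.84 ± 0.29, adjusted p = 2.4e-04. Here replicate 3 was the highest at 40 weeks, and the Sham libraries, at 11.8 to 35.6, lay between the MR groups and overlapped the earlier one. Igfbp5, a binding protein of insulin-like growth factors, measured 2.04, 1.74, 4.17, 3.25 and 6.07 at 20 weeks and 26.4, 33.1, 16.2, 17.7 and 37.6 at 40 weeks, and its difference was 2.62 ± 0.28, adjusted p = 2.4e-04. Its groups were far apart, and the Sham range, 1.89 to 6.3, was close to that of the earlier time.

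Among the others of the 12, Prkaa2, the alpha 2 catalytic subunit of the energy sensor AMP-activated kinase (chr5:124574079-124642570), measured 1.04, 1.33, 2.76, 2.07 and 5.97 and then 23.6, 16.1, 6.46, 37.8 and 28.7 (difference 2.64 ± 0.41, adjusted p = 4.7e-04). Its lowest value at 40 weeks, in replicate 3, was just above the highest at 20 weeks, in replicate 5. Hk2, hexokinase 2, which traps glucose in the cell (chr4:113560880-113609898), stood at 3.36, 4.03, 7.29, 7.04 and 13.7 and then at 44.4, 43.7, 30.8, 55.6 and 47.2 (difference 2.60 ± 0.27, adjusted p = 2.4e-04). The lowest 40-week value was more than 2 times the highest 20-week value, and Sham lay at 2.16 to 13.3. Jph2, junctophilin 2, which ties the sarcoplasmic reticulum to the T-tubule (chr3:159712325-159775644), went from 12.4, 37.8, 61.7, 65.5 and 133 to 246, 335, 186, 347 and 318 (difference 2.51 ± 0.44, adjusted p = 9.0e-04). MR 20-week replicate 1 was low and replicate 5 high, and the 20-week range of 12.4 to 133 enclosed the Sham range of 24 to 98.4. Differences between 2.44 and 2.73 were found for Sntb1 (syntrophin beta 1 of the dystrophin complex), Pkia (an inhibitor of protein kinase A), Cavin4 (a muscle caveolar coat protein), Sptb (erythroid beta spectrin), Hipk3 (a protein kinase) and Nipsnap2 (a mitochondrial protein). In each of the 12 genes every Sham library lay below every MR 40-week library. Removing the trend along span left differences of 2.19 (Sptb) to 3.12 (Ccnd2) for the 12 genes.

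The largest falls were smaller than the largest rises and included short genes of the sarcomere, ribosome and respiratory chain. In 6 of the 12 the 40-week mean was below the median level. Tcap, the titin cap (telethonin) at the Z-disc (chr10:86337703-86338862, rn6), stood at 1147, 1253, 1179.9, 1099 and 933 at MR 20 weeks and at 448, 341, 597, 376 and 307 at MR 40 weeks. The difference was -1.47 ± 0.17, adjusted p = 2.4e-04, and the Sham libraries, at 672 to 852, lay between the MR groups without touching either. Iqub, an IQ-motif protein, showed the largest fall of the rule, -1.73 ± 0.30, adjusted p = 7.8e-04, from 61.7, 37.2, 28.6, 23.1 and 12.3 to 7.34, 9.38, 7.3, 8.62 and 7.2. Its 20-week values were spread about 5-fold, from 61.7 in replicate 1 to 12.3 in replicate 5. Rps28, a protein of the small ribosomal subunit (chr7:18682071-18683441), went from 31.3, 17.2, 17.4, 16.1 and 22.4 to 7.43, 6.5, 12.1, 5.67 and 4.41, a difference of -1.44 ± 0.23, adjusted p = 5.0e-04. Atp5i, subunit e of ATP synthase (chr14:2325308-2326437), went from 388, 231, 277, 248 and 315 to 115, 84.3, 155, 106 and 87.9, a difference of -1.41 ± 0.18, adjusted p = 2.8e-04. In both, MR 40-week replicate 3 was the highest of its group and still below every 20-week library.

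The rest of the 12 falls ran from -1.45 to -1.27: RT1-CE14 (a class I histocompatibility gene), Ndufa1 (complex I), Tmem256, Lig4 (DNA ligase IV), Rpl36 (large ribosomal subunit), Amt (glycine cleavage), Zfp958 and B4galnt1 (ganglioside synthesis). Reads of the RT1 and ribosomal genes can be shared with near-identical copies or pseudogenes, so their values are uncertain. MR 20-week replicate 1 was the highest of its group in 11 of the 12 falls, and MR 40-week replicate 3 the highest of its group in 9. Every Sham library lay above every MR 40-week library in 11 of the 12. The exception was Ndufa1, with Sham at 79.8 to 203 and MR 40 weeks at 34 to 87.4. The span listed for Ndufa1, 714 kb, is that of the table and was not checked further. Span adjustment left the 12 differences between -2.0 (Iqub) and -1.0 (Rpl36).

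**Figure D3:**
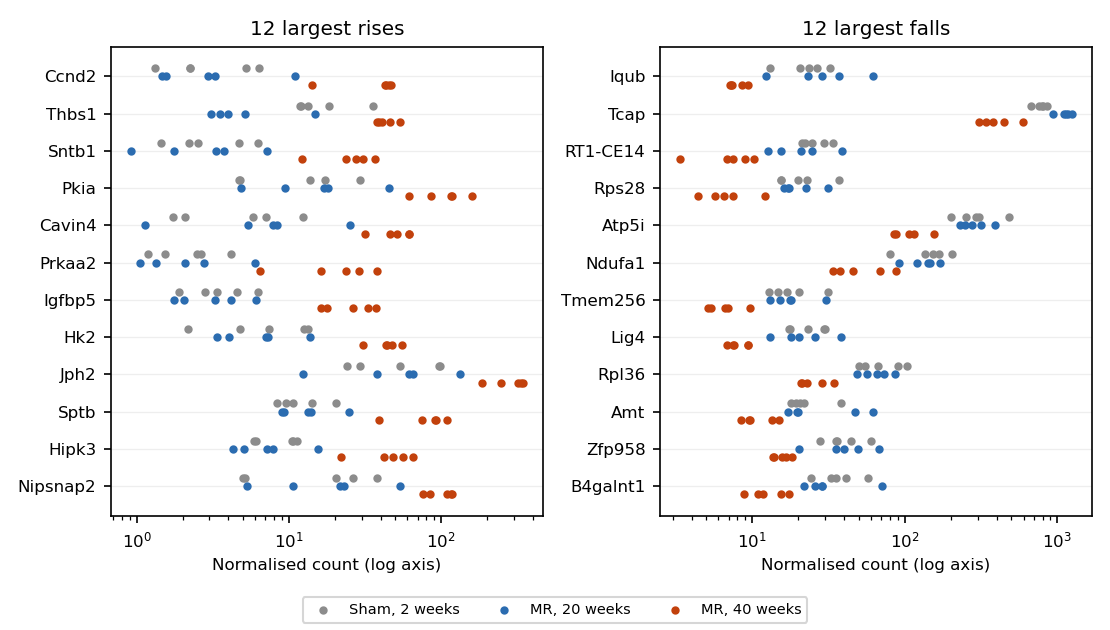
Normalised counts (log axis) in every library for the 12 largest rises and the 12 largest falls between MR 20 weeks (blue) and MR 40 weeks (orange), with Sham at 2 weeks (grey). No orange point overlaps the blue range in any of the 24 genes, which the choice of genes requires, and the grey points lie mostly with the blue ones.

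The proteins of the cytosolic ribosome fell almost as a block. Of 82 tested genes, 72 fell, 0 rose and 10 did not pass, where 18.9% of all tested genes fell. The median difference was -0.70, against 0.00 over all genes, and 59 of the genes had every MR 40-week library below every MR 20-week library. The large subunit (42 falls among 48) and the small subunit (29 among 33) moved alike. These are short genes, with a median span of 2.88 kb, and after span adjustment 55 falls and 1 rise were called, with a median of -0.43.

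Rpl18, of the large subunit, stood at 209.6, 236, 197, 212 and 198 in MR 20-week replicates 1 to 5 and at 120.4, 122, 146, 108 and 99.2 in the MR 40-week replicates. That was a difference of -0.83 ± 0.11, adjusted p = 3.2e-04, with Sham (176 to 273), MR 2 weeks (189 to 262) and MR 10 weeks (189 to 252) all above the highest 40-week library. The 40-week group stood alone below the other 4 groups. Rpl27a, also of the large subunit, went from 116–150.5 to 64.7–90.1 (difference -0.84 ± 0.11, adjusted p = 3.1e-04). For Rps24, of the small subunit, the ranges were 89.5 to 120.2 and 40.6 to 67.4 (difference -1.01 ± 0.15, adjusted p = 4.1e-04). Rpl36, one of the largest falls, measured 85.8, 72.6, 65.6, 56.4 and 48.3 and then 28.6, 22.9, 34.5, 21 and 21.2. In the 3 last genes replicate 3 was the highest at 40 weeks, yet under the lowest 20-week library.

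Messenger RNAs of ribosomal proteins are known for a pyrimidine tract at the start of transcription, through which their translation is controlled together. Because this feature is known for the group that fell, the sequence around the start is shown for 3 of its members. They were chosen among the called members that hold a pyrimidine run there. The window goes from 40 bases before to 20 bases after the start in RefSeq (build GRCr8), 5′ to 3′, with runs of 8 or more pyrimidines in capitals. In Rpl36 the run lies wholly before that start, and in Rpl27a and Rps24 it crosses the start. Rpl36 is at chr9:1533740-1533799, Rpl27a at chr1:172974533-172974592 and Rps24 at chr16:96477-96536, all on the plus strand.
Rpl36: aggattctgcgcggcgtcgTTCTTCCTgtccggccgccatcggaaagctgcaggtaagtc
Rpl27a: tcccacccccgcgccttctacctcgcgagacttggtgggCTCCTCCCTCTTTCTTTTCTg
Rps24: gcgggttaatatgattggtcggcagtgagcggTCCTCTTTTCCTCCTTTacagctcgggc
Such a run, on the coding strand of that window, was present in 75.8% of 66 ribosomal protein promoters and in 21.7% of the 8126 promoters matched to tested genes. It was present in 24.9% of the genes that fell and 20% of those that rose, shares closer to each other than to that of the ribosomal genes. A match describes the sequence only.

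Other parts of protein synthesis did not share the direction. Translation factors split into 15 rises and 15 falls among 62, near the shares of all genes, with 9 rises left without MR 40-week replicate 5. Eif4ebp2, a repressor of cap-dependent initiation, stood at 2.59, 1.56, 3.17, 3.11 and 6.7 and then at 16.9, 21.2, 12.3, 24.6 and 16.2, a rise of 2.18 ± 0.25, adjusted p = 2.4e-04, with replicate 5 the highest of the 20-week group. The elongation factor subunit Eef1d went the other way, from 73–93.6 to 37.6–60.5 (difference -0.89 ± 0.14, adjusted p = 4.9e-04). Among 37 aminoacyl-tRNA synthetases, which charge tRNAs, 9 rose and 3 fell, near the share of all genes for the rises.

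Subunits of the respiratory chain and ATP synthase encoded in the nucleus fell in the same way. Of 78 tested, 65 fell and 2 rose, with a median difference of -0.64, and 48 had all 40-week libraries below all 20-week ones. By complex, 32 of 35 genes fell in complex I, 1 of 4 in complex II, 7 of 9 in complex III, 14 of 14 in complex IV and 11 of 16 in ATP synthase. The median difference was -0.66, -0.15, -0.66, -0.77 and -0.69 in that order. Complex II, with its 4 genes, is also an enzyme of the citric acid cycle. The median span of the list was 7.05 kb, and the span-adjusted fit called 54 falls, with a median of -0.46. The subunits encoded on the mitochondrial chromosome are not in the tables and could not be set beside them.

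Ndufb3, a subunit of complex I, stood at 302, 265, 228, 208 and 202 in MR 20-week replicates 1 to 5 and at 108, 107, 143, 119 and 103 at MR 40 weeks. The difference was -1.04 ± 0.13, adjusted p = 2.8e-04, and the Sham range was 181 to 270.5, above every 40-week library. Ndufb2, of the same complex, was steady within the earlier group at 314, 306, 301, 301 and 287 and lower at 148, 151, 207, 158 and 129 (-0.94 ± 0.12, adjusted p = 2.8e-04). Cox8b, the muscle form of a complex IV subunit, measured 541, 444, 496, 479.5 and 510.3 and then 229, 212, 319, 250 and 209 (-1.03 ± 0.13, adjusted p = 2.4e-04). In all 3 genes MR 40-week replicate 3 was the highest of its group. Ndufb7, also of complex I and named here after its values were seen, went from 445–559 to 213–362 (-0.95 ± 0.14, adjusted p = 4.6e-04).

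Promoters of nuclear genes for the respiratory chain often hold sites of ETS family factors, with the core CCGGAAG. The motif is shown in capitals in 2 promoters of the group, chosen among the called members that hold it. The window goes from 100 bases before to 10 after the RefSeq start (GRCr8), 5′ to 3′ on the strand of the gene. Atp5i is at chr14:1464760-1464869 on the plus strand, where the motif lies on the opposite strand, and Ndufb7 is at chr19:41477282-41477391 on the minus strand.
Atp5i: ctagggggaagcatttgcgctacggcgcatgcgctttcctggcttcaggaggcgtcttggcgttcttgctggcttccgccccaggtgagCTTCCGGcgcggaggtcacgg
Ndufb7: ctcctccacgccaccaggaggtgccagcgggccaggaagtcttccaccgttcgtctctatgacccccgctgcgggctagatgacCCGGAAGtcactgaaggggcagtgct
On either strand of the 300-base promoters, CCGGAAG was found in 29.4% of 68 respiratory chain genes, 33.9% of 56 mitochondrial ribosomal genes, 32.6% of 43 proteasome genes and 28.8% of 66 cytosolic ribosomal genes. It was found in 18.7% of all 8126 promoters, in 24.1% of the genes that fell and in 13.8% of those that rose. The share was thus higher among falls than among rises, as a description of these windows.

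Proteins of the mitochondrial ribosome, which makes the subunits encoded in the organelle, fell in 43 of 69 cases and rose in 3. Their median difference was -0.51 (-0.31 span-adjusted, with 37 falls). Mrpl13 stood at 68.3, 59.5, 53.5, 48.8 and 50 and then at 31.9, 28.7, 33.9, 30.4 and 25 (-0.88 ± 0.12, adjusted p = 3.2e-04). Mrps25 stood at 58.4, 54.3, 51.7, 51.3 and 48 and then at 29.1, 26.4, 33.7, 33.6 and 29 (-0.78 ± 0.10, adjusted p = 2.8e-04). The groups did not overlap in either gene.

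The regulators of mitochondrial number and shape moved opposite to the subunits. Of 31 tested, 17 rose and 1 fell, with a median of 0.50. Their median span was 43.6 kb, and 14 rises and 1 fall were called after span adjustment, with a median of 0.30. Ppargc1a, the coactivator PGC-1 alpha, stood at 2.95, 2.98, 6.13, 4.01 and 4.21 at 20 weeks and at 8.02, 10.5, 5.42, 23.6 and 14.7 at 40 weeks. It rose by 1.29 ± 0.30, adjusted p = 0.0041, although MR 40-week replicate 3 lay within the 20-week range. Esrrg, the nuclear receptor ERR gamma, went from 2.13, 1.83, 3.17, 4.28 and 3.52 to 13.4, 15, 7.3, 20 and 15.5 (1.91 ± 0.23, adjusted p = 2.4e-04). Esrrb, its relative ERR beta, was low in both groups, 0.545 to 1.16 and then 2.6 to 5.54 (1.43 ± 0.17, adjusted p = 2.4e-04). Dnm1l, the dynamin that divides mitochondria, stood at 6.09, 4.12, 5.68, 5.46 and 11.6 and 26.8, 25.3, 14.3, 37.7 and 33 (1.91 ± 0.26, adjusted p = 3.2e-04).

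Enzymes of the citric acid cycle and the pyruvate dehydrogenase complex also rose more often than they fell, 14 against 3 of 34, with a median of 0.33 and of 0.33 span-adjusted. Ogdh, the E1 subunit of 2-oxoglutarate dehydrogenase, stood at 46.6, 80.5, 133, 162 and 297 and then at 439, 625, 374, 845 and 622 (2.21 ± 0.39, adjusted p = 8.0e-04). MR 20-week replicate 1 was the lowest and replicate 5 the highest of an earlier group that spanned 46.6 to 297. Cs, citrate synthase, measured 40.6, 51.6, 65.3, 82.5 and 106 and then 138, 165, 137, 283 and 189.5 (1.41 ± 0.25, adjusted p = 8.5e-04). Pdpr, a regulator of pyruvate dehydrogenase phosphatase, rose by 1.80 ± 0.30, adjusted p = 6.4e-04, with MR 40-week replicate 3 just under the highest 20-week value. Suclg1, a subunit of succinyl-CoA ligase, fell from 364–417 to 242–298 (-0.56 ± 0.10, adjusted p = 9.7e-04).

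Of 49 fatty acid genes, 8 rose, 11 fell and 30 did not pass, shares near those of all genes, with a median of -0.05. The split depended on the scale, with 2 rises and 16 falls on the deposited scale and 6 and 14 span-adjusted. Ucp3, an uncoupling protein of muscle mitochondria, stood at 42.5, 37.1, 35.2, 22.1 and 33.3 and then at 10, 13.2, 16, 16.7 and 15.1 (-1.19 ± 0.17, adjusted p = 3.9e-04). The 20-week group had the highest mean of the series: Sham lay at 9.21 to 23, MR 2 weeks at 4.3 to 12.1 and MR 10 weeks at 9.4 to 19.3. Etfb, which passes electrons from fatty acid oxidation to the respiratory chain, went from 463–568 to 235–394 (-0.94 ± 0.14, adjusted p = 4.7e-04). Fabp4, a fatty acid binding protein of endothelium and fat cells, went from 263–430.5 to 129–229 (-1.03 ± 0.16, adjusted p = 5.0e-04), and Acot13, an acyl-CoA thioesterase, from 61.9–69 to 29.4–49.5 (-0.69 ± 0.13, adjusted p = 0.0012). Cpt1b, the muscle gate of fatty acid entry to mitochondria, measured 277, 274, 256, 257 and 255 and 227, 258, 259, 318 and 249.6 and did not pass (difference -0.02 ± 0.11, adjusted p = 0.91).

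Glucose genes gave 9 rises and 5 falls among 36, near the shares of all genes, with a median of 0.19. On the deposited scale they gave 7 rises and 9 falls. Beside Hk2, described above, the rises included Phkb (a subunit of phosphorylase kinase), from 3.32, 3.16, 3.77, 5.0 and 5.48 to 15.7, 15.7, 9.49, 22.6 and 23.6 (1.80 ± 0.22, adjusted p = 2.4e-04). Gys1, muscle glycogen synthase, went from 60.9–78.1 to 93.7–142 (0.74 ± 0.13, adjusted p = 8.3e-04), and Slc2a1, the glucose transporter GLUT1, from 6.26–8.89 to 10.2–19.1 (0.88 ± 0.17, adjusted p = 0.0012). Ckmt2, the mitochondrial creatine kinase of striated muscle, fell from 811, 579.6, 732, 649.6 and 781 to 400.0, 421, 495, 471 and 337 (-0.74 ± 0.14, adjusted p = 0.0011).

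Insulin and growth factor signalling was among the lists with the most rises. Of 36 tested genes, 22 rose and 2 fell, with a median of 0.56 and, span-adjusted, 18 rises, 4 falls and a median of 0.33. Irs2, the docking protein that carries the insulin signal (chr16:83824515-83848570, rn6), stood at 23.1, 21.6, 18, 29.9 and 26.2 in MR 20-week replicates 1 to 5 and at 71.6, 107, 117, 181 and 132 at MR 40 weeks. The difference was 2.27 ± 0.20, adjusted p = 2.4e-04; the earlier group was tight, and every library of Sham (19.7 to 46), MR 2 weeks (24.9 to 53.2) and MR 10 weeks (14.3 to 36.9) lay below every 40-week library. Foxo3, a transcription factor held back by insulin signalling, stood at 5.31, 4.31, 4.12, 6.27 and 6.21 and 14.1, 17.5, 12.5, 20.8 and 22.3 (1.55 ± 0.17, adjusted p = 2.4e-04). Fgf1, a fibroblast growth factor, went from 6.77, 6.5, 8.95, 9.83 and 11.3 to 24.6, 27.6, 16.9, 37.9 and 34 (1.57 ± 0.20, adjusted p = 2.8e-04). Pik3r1, the regulatory subunit of phosphoinositide 3-kinase, went from 6.65–9.42 to 12.3–21.2 (0.99 ± 0.15, adjusted p = 4.9e-04).

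Genes of calcium cycling and excitation-contraction coupling rose in 14 of 27 cases and fell in 2, with a median of 0.45. They are long, with a median span of 88.8 kb, and 11 rises, 1 fall and a median of 0.26 were found after span adjustment. Ryr2, the calcium release channel of the sarcoplasmic reticulum (chr17:65533998-66130713), stood at 414, 502, 495, 464 and 633 and then at 900.4, 1021, 670.4, 1359 and 1248 (1.02 ± 0.18, adjusted p = 9.7e-04). Its lowest 40-week value, in replicate 3, was close to the highest 20-week value, in replicate 5, without overlap. Atp2a2, the pump SERCA2 that returns calcium to the reticulum, measured 2718, 3699.7, 4371, 4138 and 5186 and then 5452, 8023, 6371, 8755 and 7334 (0.85 ± 0.20, adjusted p = 0.0049). Sham libraries lay at 312 to 530.4 for Ryr2 and 1774 to 4723 for Atp2a2, below every 40-week library. Jph1, the second junctophilin, went from 1.04, 1.24, 1.16, 1.49 and 3.47 to 11.1, 10.5, 6.67, 15.1 and 10.6 (2.16 ± 0.23, adjusted p = 2.4e-04), with MR 20-week replicate 5 well above the rest of its group. Cacna2d1, an auxiliary subunit of the L-type calcium channel, went from 2.21–3.08 to 4.28–14.1 (1.39 ± 0.23, adjusted p = 6.0e-04).

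Adrenergic and cyclic nucleotide signalling showed 24 rises and 3 falls among 43 genes, with 17 whose 40-week libraries all lay above the 20-week ones. The median was 0.57 and 0.37 span-adjusted, with 21 rises and 5 falls. Genes of opposite roles rose together. Prkar2a, a regulatory subunit of protein kinase A, went from 1.82, 1.05, 1.81, 1.44 and 4.35 to 16.2, 15.1, 7.22, 24.2 and 21.1 (2.51 ± 0.30, adjusted p = 2.4e-04), and Akap6, which anchors that kinase, from 13.8, 16, 22.3, 17 and 31.6 to 86.6, 105, 48.8, 140.3 and 118 (2.23 ± 0.26, adjusted p = 2.4e-04). Pde3a, a phosphodiesterase that breaks down cyclic AMP, went from 6.63, 5.18, 7.49, 10.2 and 14.8 to 37.5, 42, 19.4, 54.7 and 44.4 (2.05 ± 0.27, adjusted p = 3.1e-04), the kinase inhibitor Pkia was among the largest rises, and Arrb1, an arrestin that silences receptors, went from 0.722–1.32 to 2.52–4.51 (1.24 ± 0.16, adjusted p = 2.8e-04). Chrm2, the muscarinic receptor through which the vagus slows the heart, stood at 1.41, 0.916, 1.16, 1.44 and 3.33 and then at 11.3, 12.6, 5.5, 20.6 and 14.7 (2.35 ± 0.29, adjusted p = 2.4e-04). Its listed span is 2.06 kb, and its span-adjusted difference was 2.65.

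Ion channel genes rose in 15 of 32 and fell in 3 (median 0.35, and 14 and 4 span-adjusted). The members described here are potassium channels. Kcnj3, a channel opened by muscarinic receptors, went from 0.999, 1.1, 2.92, 1.62 and 2.89 to 12.5, 12.3, 6.42, 17 and 12.9 (2.19 ± 0.25, adjusted p = 2.4e-04). Kcnk3, the background channel TASK-1, went from 7.31, 9.8, 17.2, 16.6 and 28.3 to 77, 89.4, 48.4, 102 and 84.3 (2.36 ± 0.29, adjusted p = 2.4e-04). Kcnj12, an inward rectifier, rose less, by 0.94 ± 0.17, adjusted p = 0.0011. In Kcnj3, Kcnk3 and Kcnj12 replicate 3 was the lowest of the 40-week libraries.

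Calcineurin, MEF2 and the transcription factors of heart development gave 19 rises and 0 falls among 30, with a median of 0.59 (0.41 and 15 rises span-adjusted). Tbx20, a T-box factor of the heart, was near 1 or under it in 4 of the 20-week libraries, at 0.681, 0.55, 0.151, 1.04 and 1.96, and stood at 11.7, 13.4, 4.2, 22.6 and 15.9 at 40 weeks. Its difference was 2.87 ± 0.34, adjusted p = 2.4e-04, on a scale that understates the fold of such low values. Nfatc3, a target of calcineurin, went from 8.01–13.8 to 16.2–23.7 (0.99 ± 0.15, adjusted p = 4.6e-04), and Ppp3cb, the catalytic subunit calcineurin A beta, from 9.72, 11.3, 15.8, 17.1 and 19 to 27.9, 32.4, 27.7, 37 and 34 (1.10 ± 0.17, adjusted p = 4.6e-04).

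Intercalated disc and costamere genes, which couple myocytes to each other and to the matrix, rose in 16 of 24 and fell in 3 (median 0.53; 12 and 3 span-adjusted). Gja1, the gap junction protein connexin 43, stood at 112, 119.7, 163, 152 and 215 and then at 255, 329, 294, 372 and 312 (1.06 ± 0.17, adjusted p = 5.0e-04). Ank3, ankyrin G, was nearly level within the earlier group at 23.4 to 27.3 and higher at 41.5, 45.3, 32.9, 47.4 and 52 (0.73 ± 0.12, adjusted p = 6.6e-04). Itgb1bp2, melusin, an integrin partner of muscle, fell from 132, 134, 128, 122 and 99 to 77.6, 78.5, 86.5, 68.5 and 64.8 (-0.70 ± 0.11, adjusted p = 5.9e-04). Of 12 genes of caveolae, the small pits of the membrane, 6 rose and 2 fell, with a median of 0.34. The coat gene Cavin1 rose by 1.27 ± 0.25, adjusted p = 0.0018 and Cavin4 was among the largest rises, and the muscle caveolin Cav3 fell from 99.5–126 to 60.9–89.4 (-0.60 ± 0.12, adjusted p = 0.0015).

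Sarcomere and Z-disc genes split evenly, with 8 rises and 9 falls among 33, a share of rises near that of all genes, and a median of -0.02. Tnni3, cardiac troponin I, the inhibitory switch of the thin filament, stood at 3649.8, 3931, 3907, 3842 and 3244 and then at 1575, 2073, 2252, 1566 and 1428. The fall of -1.08 ± 0.16, adjusted p = 3.9e-04 left every 40-week library below every other library of the series, since Sham lay at 3425 to 4903, MR 2 weeks at 2516 to 4739.5 and MR 10 weeks at 2627 to 4141. Tcap, described above, fell from a 20-week level that was above Sham. In the other direction Flnc, filamin C of the Z-disc, went from 142, 193, 179, 172 and 265 to 375, 396, 444, 403 and 353 (1.07 ± 0.15, adjusted p = 3.2e-04), and Smyd1, a methyltransferase needed for sarcomere assembly, from 16.3, 18.4, 26.3, 22.4 and 30.4 to 49, 78.8, 43.1, 99 and 86 (1.57 ± 0.23, adjusted p = 4.0e-04). Csrp3, muscle LIM protein, fell by -0.55 ± 0.14, adjusted p = 0.0069 with overlapping groups.

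The classical genes of cardiac stress did not move as a set. Of 17, 5 rose and 2 fell, and the median was 0.08, or -0.07 on the deposited scale. The rises were 3 without MR 20-week replicate 3 or without MR 40-week replicate 4. Nppa, atrial natriuretic peptide, stood at 606, 1319.8, 206, 312 and 463 at MR 20 weeks and at 1899, 219, 79.5, 229.9 and 589 at MR 40 weeks. It varied more than 20-fold within the later group, and its difference of -0.48 ± 0.68, adjusted p = 0.59 did not pass. Nppb, brain natriuretic peptide, measured 334, 476, 218, 307 and 196 and 341, 166, 171, 258 and 222 (-0.38 ± 0.24, adjusted p = 0.22). The myosin heavy chains did not pass either: Myh7 measured 10450.4 to 16844 at 20 weeks and 13576 to 21347 at 40 weeks (0.25 ± 0.22, adjusted p = 0.38), and Myh6 12336 to 20882 and 9170.2 to 21419 (0.13 ± 0.26, adjusted p = 0.7). Skeletal actin (Acta1) differed by -0.17 ± 0.27 and the stretch-induced Ankrd1 by 0.04 ± 0.17, with overlapping groups and adjusted p of 0.63 and 0.88. Gdf15, a circulating stress cytokine, also overlapped, at 2.11 to 5.86 and 2.43 to 6.02 (adjusted p = 0.82). Of the members that passed, Fhl1, a LIM protein of muscle, rose by 0.58 ± 0.12, adjusted p = 0.0026.

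**Figure D4:**
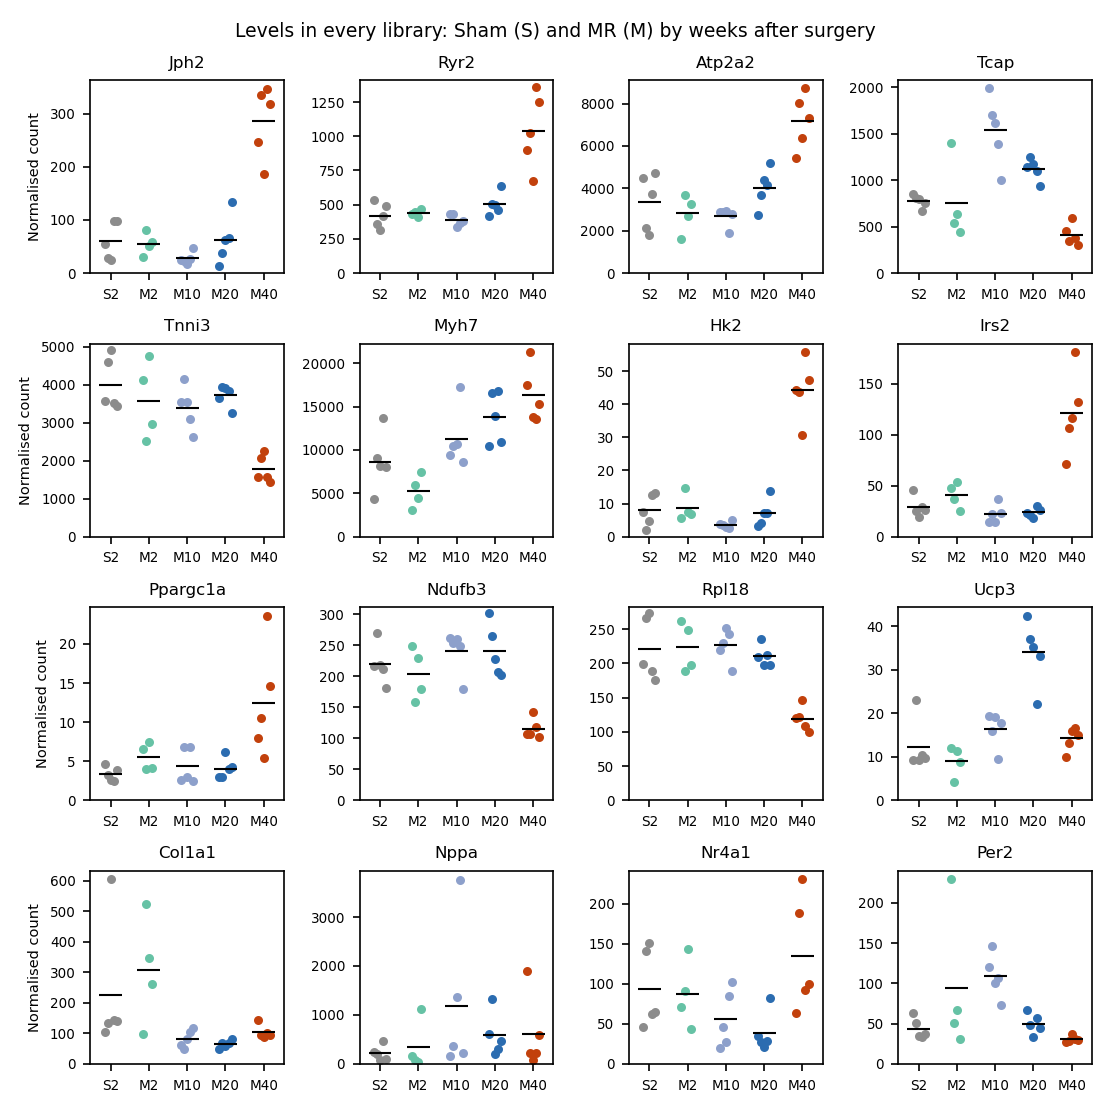
Normalised counts (vertical axes from 0) of 16 genes in every library of the 5 groups: Sham at 2 weeks (S2) and MR at 2, 10, 20 and 40 weeks (M2 to M40), with the group mean as a bar. Irs2, Hk2 and Jph2 stand highest and Tnni3, Ndufb3 and Rpl18 lowest in the M40 libraries, while the M20 and M40 points of Nppa and Myh7 overlap.

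Matrix genes rose in 14 of 42 and fell in 1, where 22.5% of all genes rose and 18.9% fell. Their median was 0.17, or 0.01 on the deposited scale. Span-adjusted, 14 rose and 3 fell, with a median of 0.10. Col1a1, the alpha 1 chain of collagen I, stood at 48.5, 69.6, 59.6, 68.9 and 81.1 and then at 144, 93.7, 89.2, 101 and 94.3. The rise of 0.66 ± 0.15, adjusted p = 0.0046 left 4 of the 5 libraries below every Sham library, which lay at 105 to 605. In the fits that also held the Sham libraries or all 24 libraries, whose spread was larger for this gene, it did not pass (adjusted p = 0.12 and 0.17). Col3a1, of collagen III, measured 185 to 262 and 185 to 366 and did not pass (0.16 ± 0.16, adjusted p = 0.45), nor did Postn (-0.13 ± 0.36, adjusted p = 0.8), a matricellular protein of activated fibroblasts, or Timp1 (0.13 ± 0.19, adjusted p = 0.61), an inhibitor of matrix proteases. Rises were found in Fbn1, fibrillin 1, from 13.1, 16.9, 15.6, 16.4 and 17.4 to 54.3, 24.5, 23.1, 39.9 and 46.4 (1.13 ± 0.21, adjusted p = 0.0011), in Loxl2, a collagen crosslinking enzyme, from 1.19–2.76 to 3.9–7.65 (1.29 ± 0.19, adjusted p = 4.1e-04), and in Col5a1, from 17.8–23.8 to 26.6–41 (0.67 ± 0.13, adjusted p = 0.0016). The proteases Adam9 and Adam10 rose by 1.06 ± 0.15, adjusted p = 3.7e-04 and by 1.10 ± 0.17, adjusted p = 4.6e-04, and Mmp24 fell by -0.98 ± 0.16, adjusted p = 5.8e-04.

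TGF-beta and BMP signalling gave 19 rises and 4 falls among 37, a count that was 12 without MR 40-week replicate 5 and 9 after span adjustment. Ligands, receptors and inhibitors were among them. The ligand Bmp6 went from 2.11–8.66 to 10.2–18.7 (1.28 ± 0.25, adjusted p = 0.0015). The receptor Tgfbr2 stood at 6.4, 5.82, 13.3, 11.4 and 22.3 and 37.5, 40.4, 32.4, 33.6 and 49.3 (1.76 ± 0.27, adjusted p = 4.9e-04), and the co-receptor Tgfbr3 at 3.0, 3.71, 7.08, 5.64 and 10.8 and 19.7, 18.4, 15.9, 28.3 and 24.7 (1.75 ± 0.26, adjusted p = 4.0e-04). Smad7, the inhibitory SMAD, rose by 0.93 ± 0.13, adjusted p = 3.4e-04. Of the angiotensin, endothelin and aldosterone genes, 6 of 14 rose and 0 fell (5 and 0 span-adjusted). Corin, the protease that activates natriuretic peptides, rose from 17.9, 9.48, 18.2, 15.2 and 16.9 to 53.5, 34.7, 24.9, 60 and 33 (1.31 ± 0.23, adjusted p = 8.2e-04). The rises included the mineralocorticoid receptor Nr3c2 (0.70 ± 0.12, adjusted p = 6.6e-04), the endothelin converting enzyme Ece1 (0.91 ± 0.16, adjusted p = 7.3e-04) and the endothelin receptor Ednrb (0.91 ± 0.19, adjusted p = 0.0024).

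Hypoxia and angiogenesis genes rose in 10 of 24 and fell in 2 (10 and 0 span-adjusted), where 22.5% of all genes rose. Egln3, a prolyl hydroxylase that senses oxygen, went from 61.5, 88.8, 85.6, 86.2 and 131 to 225, 219, 148, 298 and 223 (1.30 ± 0.20, adjusted p = 4.6e-04). Epas1, hypoxia-inducible factor 2 alpha, went from 51.2, 49.2, 73.8, 92.1 and 119 to 165, 174, 141, 174 and 184 (1.19 ± 0.21, adjusted p = 7.9e-04), and Nrp2, a co-receptor of vascular growth factors, rose by 1.31 ± 0.21, adjusted p = 5.0e-04. In the Hippo pathway 8 of 17 rose and 2 fell (7 and 3 span-adjusted). Its effector Yap1 stood at 2.54, 1.65, 3.32, 3.7 and 7.63 and then at 18.2, 18.8, 9.61, 22 and 19.7 (2.04 ± 0.28, adjusted p = 3.2e-04), and its partner Tead1 at 1.45, 1.24, 2.36, 1.17 and 2.25 and 10.1, 9.85, 2.39, 14.7 and 13 (1.88 ± 0.33, adjusted p = 9.0e-04). In both, MR 40-week replicate 3 stood far below the other 4. Among 25 genes of the cell cycle and DNA replication, 2 rose and 1 fell, fewer than the shares of all genes. Most replication genes that could be tested did not pass, unlike Ccnd2.

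Markers of the other cell types of the tissue mostly did not pass. Endothelial markers gave 2 rises and 4 falls among 22. The falls were near the share of all tested genes (18.9%) and the rises below it (22.5%). Their summed normalised count was 1940 to 2618 at MR 20 weeks and 1808 to 2379 at MR 40 weeks. The rises included the junction cadherin Cdh5 (1.14 ± 0.21, adjusted p = 0.0012), with a listed span of 49.2 kb. The falls included Egfl7 (-0.93 ± 0.24, adjusted p = 0.0081), Esam (-0.67 ± 0.19, adjusted p = 0.013) and Sox18 (-0.64 ± 0.16, adjusted p = 0.0069, and adjusted p = 0.13 span-adjusted). Their listed spans were 9.34, 10.9 and 1.80 kb. The falls numbered 7 without MR 20-week replicate 5. Pericyte and smooth muscle markers gave 3 rises (Rgs5 1.20 ± 0.26, adjusted p = 0.0029, Notch3 1.04 ± 0.24, adjusted p = 0.0045 and Abcc9 1.02 ± 0.19, adjusted p = 0.0014) and 1 fall (Smtn -0.47 ± 0.10, adjusted p = 0.003) among 16, with sums of 1440 to 2014 and 1754 to 2173. Both counts were below the shares of all genes. Fibroblast markers gave 3 rises and 1 fall among 19, both below the shares of all genes. Their sums were 2096 to 2604 and 2088 to 2657, so the groups overlapped almost wholly. The rises numbered 1 on the deposited scale and in the fits with the Sham libraries or with all 24 libraries.

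Macrophage markers gave 0 rises and 1 fall among 23, with summed counts of 351 to 479.5 and 254.6 to 398. Lymphocyte markers gave 1 rise among 10 (sums of 23.8 to 34.8 and 23.3 to 36.1), and erythroid genes no call among 8, with sums that varied widely, 1526 to 4952 and 652 to 6854. Neutrophil and mast cell markers gave 1 rise and 5 falls among 7. The rise was the mast cell marker Kit (0.86 ± 0.21, adjusted p = 0.0056), whose groups did not overlap. The falls included the neutrophil proteins S100a8 (-0.97 ± 0.31, adjusted p = 0.022), S100a9 (-1.02 ± 0.34, adjusted p = 0.027) and Lcn2 (-0.79 ± 0.26, adjusted p = 0.027). The summed counts of the 7 markers were only 20.6 to 44.1 and 12.5 to 25.3. The falls numbered 0 to 4 when single libraries were left out and 0 after span adjustment. They numbered 0 without MR 20-week replicate 1 or without MR 40-week replicate 2. There S100a8 still differed by -0.80 and -0.90 (adjusted p = 0.058 and 0.053), so the calls lay close to the threshold. Adipocyte markers, of which 5 of 15 were tested, fell in 3 cases. These were Fabp4, Cfd (-0.66 ± 0.22, adjusted p = 0.028) and Lipe (-0.52 ± 0.17, adjusted p = 0.03). The sums were 393 to 600.4 and 230.2 to 354.5, without overlap. Fabp4, which is also a gene of endothelium, was the largest part of them, with means of 347 and 170. The sums therefore largely repeat its fall. The adipocyte falls numbered 1 without MR 40-week replicate 1 or without replicate 4, when Cfd and Lipe no longer passed. Atrial markers, Nppa among them, gave 2 rises and 2 falls among 12, near or below the shares of all genes. Their sums were 1605 to 2804 and 1735 to 4171. The rises were Dkk3 (0.61 ± 0.14, adjusted p = 0.0048), without overlap, and Pam (0.76 ± 0.19, adjusted p = 0.0069). The falls were the light chains Myl4 (-1.19 ± 0.43, adjusted p = 0.038) and Myl7 (-0.66 ± 0.23, adjusted p = 0.034). Each of these falls lost its call when any of several single libraries was left out. Without MR 20-week replicate 1, for example, the adjusted p was 0.093 for Myl4 and 0.073 for Myl7. The ventricular myocyte markers summed to 32825 to 41795 at MR 20 weeks and to 23238 to 37197 at MR 40 weeks, with 2 rises and 3 falls among 11. The part of cell make-up in the changes of the gene groups was not tested.

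Immediate early genes, which are switched on within minutes of a stimulus, rose in 15 of 31 cases with no falls, and their median difference of 0.69 was the highest of the lists with 12 or more tested members. They are short (median span 3.09 kb), against the general trend, and 23 rose after span adjustment. On the deposited scale, or without MR 20-week replicate 2 or 3, the count was 9. Nr4a1, an orphan nuclear receptor, stood at 35.1, 27.7, 21.4, 29.3 and 82.6 in MR 20-week replicates 1 to 5 and at 63.3, 189, 231, 92.1 and 100.4 at MR 40 weeks (1.77 ± 0.37, adjusted p = 0.0024). Replicate 5 was the high library of the earlier group, and the Sham range of 46.6 to 152 lay above the other 4 and overlapped the 40-week range. Nr4a3, of the same family, went from 1.27, 1.37, 1.66, 0.992 and 11.5 to 7.2, 20.1, 19.4, 23.6 and 12.9 (2.34 ± 0.44, adjusted p = 0.0013), with replicate 5 again apart from its group and Sham at 2.39 to 16.6. Egr2, a zinc finger factor named here after its values were seen, showed the same layout, 0.818, 0.687, 0.904, 0.857 and 4.79 and then 3.58, 10.3, 14.2, 3.34 and 4.22 (1.63 ± 0.40, adjusted p = 0.0057). Dusp5, a nuclear phosphatase of ERK kinases, differed without overlap and without a high replicate 5, from 10.3, 11.6, 10.4, 15.1 and 8.56 to 17.8, 21, 24.3, 16.8 and 28.5 (0.89 ± 0.16, adjusted p = 0.0011). Fosl2, an AP-1 subunit, went from 1.92–4.99 to 5.83–7.68 (1.05 ± 0.18, adjusted p = 7.7e-04), also without overlap, and here replicate 5 was again the highest of the 20-week group.

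Immediate early genes are known targets of serum response factor, which binds the CArG box, and of CREB, which binds TGACGTCA. To show how a promoter with such a site looks, 2 of the genes are printed over the 200 bases before the RefSeq start (GRCr8). They were chosen among called members that hold a CArG box or TGACGTCA there, so a match was fixed by the choice. The sequences run 5′ to 3′ on the strand of the gene, with CArG boxes in capitals. Neither window holds TGACGTCA. Dusp5 is at chr1:262543574-262543773 on the plus strand and Egr2 at chr20:21054442-21054641 on the minus strand.
Dusp5: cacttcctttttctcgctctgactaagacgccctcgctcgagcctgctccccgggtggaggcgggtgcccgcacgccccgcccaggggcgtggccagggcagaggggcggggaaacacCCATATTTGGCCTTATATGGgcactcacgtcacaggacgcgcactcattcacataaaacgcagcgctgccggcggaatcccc
Egr2: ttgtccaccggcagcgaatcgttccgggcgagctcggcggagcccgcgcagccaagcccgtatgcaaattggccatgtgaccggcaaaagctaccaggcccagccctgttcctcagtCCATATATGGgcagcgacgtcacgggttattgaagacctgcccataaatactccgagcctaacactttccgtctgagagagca
In the 300-base promoters, read on both strands, a CArG box was found in 22.7% of 22 immediate early genes and in 1.22% of all 8126. TGACGTCA was found in 22.7% of them and in 3.25% of all. Among all genes that rose the shares were 1.61% and 2.94%, close to the general ones.

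Protein quality control was divided. The proteasome, which degrades tagged proteins, fell in 31 of 47 subunits and partners and rose in 3, with a median of -0.40 (-0.31 and 23 falls span-adjusted). Psma2, of its core ring, stood at 47.5, 45.4, 42.2, 44.8 and 40 and then at 27.8, 25.6, 30.7, 29.5 and 24.9 (-0.65 ± 0.10, adjusted p = 4.5e-04), and Psmd4, a ubiquitin receptor of its cap, at 99.2, 104, 88.9, 86.8 and 88.9 and 61.9, 64.5, 67.3, 54 and 47.4 (-0.66 ± 0.11, adjusted p = 7.2e-04). Ubiquitin-specific proteases, which remove the tag, rose in 14 of 40 and fell in 2, where 22.5% of all genes rose and 18.9% fell. Their median of 0.19 was 0.05 span-adjusted, with 12 rises and 4 falls. Usp22 rose by 1.33 ± 0.19, adjusted p = 3.7e-04. Of the ligases that attach the tag, 9 of 26 rose and 4 fell, with a median of 0.20. Span-adjusted, 9 rose and 5 fell, with a median of 0.04. Fbxo32, the muscle ligase atrogin-1, stood at 1.09, 0.733, 1.96, 1.89 and 3.91 and then at 13.3, 11, 5.75, 15.5 and 16.8 (2.22 ± 0.29, adjusted p = 2.9e-04), and Traf6 went from 0.904–1.22 to 2.13–4.94 (1.18 ± 0.18, adjusted p = 4.4e-04). Autophagy and lysosome genes stayed near the general shares, with 15 rises and 10 falls among 66.

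Stress responses gave mixed counts. In the unfolded protein response 8 of 32 rose and 1 fell. The share of rises was near the 22.5% of all genes, and that of falls below the 18.9%. The sensor Atf6 went from 1.23, 1.01, 1.56, 2.39 and 3.47 to 8.74, 8.56, 4.7, 11.1 and 11.2 (1.76 ± 0.25, adjusted p = 3.3e-04), while Ddit3, the death-linked factor CHOP, fell from 53.5, 50.7, 33.6, 35.3 and 31.6 to 20.5, 20.1, 25.9, 21.9 and 17.9 (-0.89 ± 0.16, adjusted p = 8.9e-04). The rises numbered 5 without MR 40-week replicate 4 or without replicate 5. Heat shock genes gave 7 rises, such as Dnajb4 (1.32 ± 0.22, adjusted p = 5.9e-04), and 5 falls, such as Hspb3 (-0.87 ± 0.13, adjusted p = 4.7e-04), among 36. Both counts were somewhat below the shares of all genes. Antioxidant genes fell in 12 of 41 cases and rose in 6; the falls numbered 20 without MR 40-week replicate 3 and 7 after span adjustment. Mgst3, a microsomal glutathione transferase, fell from 99–165 to 47.4–92.8 (-1.0 ± 0.18, adjusted p = 9.4e-04). Txnrd1 and Srxn1, both known targets of the oxidant sensor NRF2, rose by 0.80 ± 0.12, adjusted p = 4.4e-04 and by 0.96 ± 0.16, adjusted p = 6.6e-04. Sult1a1, a sulfotransferase of the glucocorticoid-responsive list, fell by -1.23 ± 0.19, adjusted p = 5.0e-04.

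**Figure D5:**
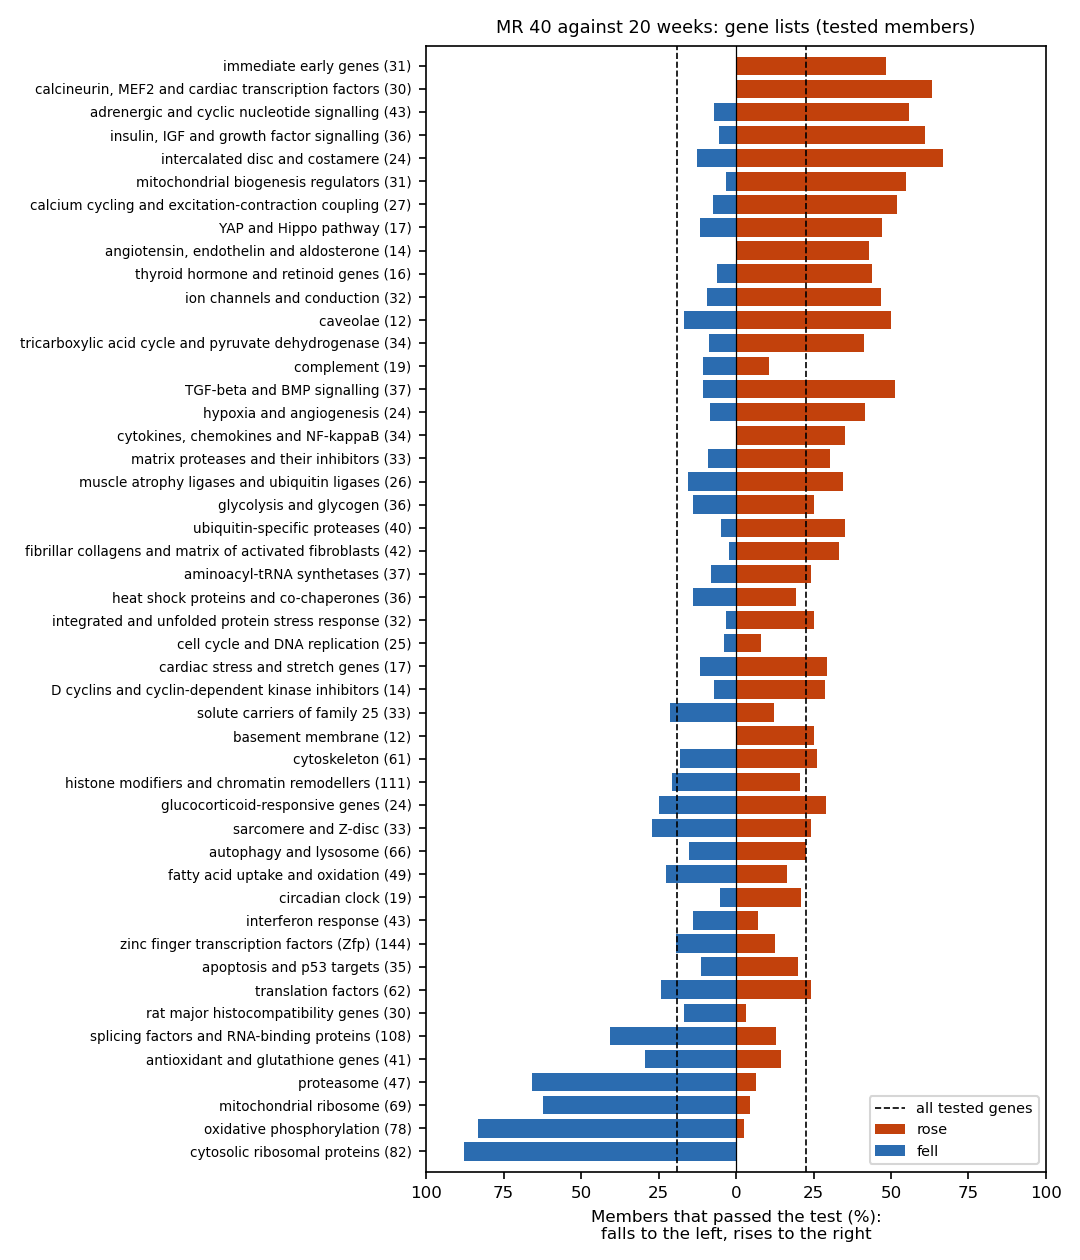
Share of tested members of each gene list with 12 or more such members, cell type markers aside, that rose (orange, to the right) or fell (blue, to the left) at MR 40 weeks, in order of the median difference; dashed lines mark the shares of all tested genes, 22.5% and 18.9%. Cytosolic ribosomal proteins, respiratory chain, mitochondrial ribosome and proteasome hold the longest bars to the left.

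Interferon response genes gave 3 rises and 6 falls among 43, both below the shares of all genes. Ifi27 (-0.96 ± 0.22, adjusted p = 0.0037) and the factor Irf3 (-0.92 ± 0.22, adjusted p = 0.0046) were among the falls, which numbered 11 without MR 20-week replicate 5 and 2 after span adjustment. Cytokine, chemokine and NF-kappaB genes rose in 12 of 34 cases and fell in none, where 22.5% of all genes rose. The rises numbered 7 without MR 20-week replicate 2 or without replicate 4. Span-adjusted, 11 rose and 1 fell. The chemokine Cx3cl1 rose from 12.3–18.1 to 20.6–30.4 (0.78 ± 0.13, adjusted p = 6.9e-04) and the receptor Lifr by 1.54 ± 0.28, adjusted p = 0.0011. Among genes of apoptosis and p53, 7 of 35 rose and 4 fell, near or below the shares of all genes, with a median of -0.08. On the deposited scale 6 rose and 9 fell, and 2 rises were called where a mean of at least 10 was required. The rises included the survival gene Bcl2, which went from 0.251–1.37 to 2.31–4.32 (1.38 ± 0.20, adjusted p = 3.7e-04) and its relative Bcl2l13 from 0.55–1.86 to 4.28–6.98 (1.71 ± 0.19, adjusted p = 2.4e-04).

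Splicing factors and RNA-binding proteins fell in 44 of 108 cases and rose in 14 (median -0.21; 38 falls span-adjusted). Snrpc, a protein of the U1 particle, went from 14, 9.71, 10.4, 8.34 and 7.24 to 4.53, 3.3, 4.41, 4.99 and 3.89 (-1.05 ± 0.16, adjusted p = 4.9e-04), and Qk, a splicing regulator, rose from 2.36, 3.25, 5.13, 4.19 and 8.46 to 16.7, 15.3, 10.7, 20.8 and 20.4 (1.70 ± 0.25, adjusted p = 4.0e-04). Clock genes gave 4 rises and 1 fall among 19, a share of rises near that of all genes, and 2 rises and 3 falls on the deposited scale. Per2, a core repressor of the clock, stood at 66.5, 47.7, 33.4, 57.2 and 44.2 and then at 26.9, 29, 37.2, 31.4 and 29.6 (-0.65 ± 0.16, adjusted p = 0.0063), with MR 40-week replicate 3 within the 20-week range. It did not pass in the fit of all 24 libraries (adjusted p = 0.12). MR 10-week libraries, at 73.1 to 147, were higher still, and the hour of tissue collection is not given in the labels used here. Bhlhe40, another repressor, rose by 1.30 ± 0.18, adjusted p = 3.2e-04, and Csnk1e, a clock kinase, by 0.85 ± 0.15, adjusted p = 7.5e-04.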

How the data were processed

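RNA from rat myocardium was sequenced in 24 libraries, grouped by the labels. Per the submitters' processing notes, the authors used Partek and build rn6; for the aligner, annotation, counting rule, strand and scaling the sources used here give nothing. The deposited values are a linear signal per gene (normalised counts). The smallest value of a library was taken as a single read. With the highest values left out, 97.6% to 97.9% of the values in a library were within 0.1 read of a whole number of reads. Libraries of a group differed by far more than counting error (chi-square per gene 10.4 to 71.0 over 30 pairs). Each listed gene reached at least 31 reads in some library, so rarely read genes cannot be seen.

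The tables for MR 20 and 40 weeks (10275 and 10439 genes) were joined by symbol, leaving out 83 and 247 genes found in only 1 of them. Each library was divided by its median ratio to the geometric mean of each gene over 15 libraries. A gene needed a mean of at least 1 (288 had less), and log2(value + 1) was tested with limma 3.58.1 in R 4.3.3, with a mean trend, on the 10 MR libraries. The script was tested on simulated data. edgeR 4.0.16 and DESeq2 1.42.0 on the recovered reads, other scalings, pseudocounts and filters, other sample sets and leaving out each library were alternatives; the span adjustment was added after seeing the data.

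Genes named are the 12 largest rises and falls among non-overlapping genes of at least median level, a panel of 16 cardiac genes, and up to 4 called members with the smallest p from each of 64 lists; Egr2 and Ndufb7 were added after their values were seen. A gene that this rule selects is not reported here. The members and lists were chosen with earlier results of these data known. Gene positions are those of the tables (rn6; the base of the start count, 0 or 1, is not given). Promoters come from RefSeq, GRCr8, whose table matched 10104 of 10192 symbols and gave a promoter for 8126 tested genes.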

Additional observations from a re-analysis of the deposited data

Results flagged for a closer look

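In groups of 5, a library was singled out where its gap to the nearest other library exceeded 0.71 of the group's range on the log2 scale (Dixon's 95% value), which chance alone reaches in about 1 of 20 groups. Of 312 such groups, from 156 genes, 15 did so (4.81%). That share cannot be set directly against chance, since the genes share libraries and many were chosen for a small p. MR 40-week replicate 3 held 5 of the flags and MR 20-week replicate 5 held 3. Among the genes named, MR 40-week replicate 3 stood low in Ccnd2 (14.2 against 42.7 to 47.1), Kcnj12 (7.43 against 11.03 to 12.7), Yap1 (9.61 against 18.2 to 21.98) and Tead1 (2.39 against 9.85 to 14.7), and high in S100a9 (6.72 against 1.44 to 1.97). MR 20-week replicate 5 stood high in Nr4a3 (11.5 against 0.992 to 1.66), Egr2 (4.79 against 0.687 to 0.904) and Jph1 (3.47 against 1.04 to 1.49). MR 20-week replicate 1 stood high in B4galnt1 (70.4 against 21.7 to 28.6) and Irf3 (33.0 against 13.2 to 17.1), and replicate 2 low in Corin (9.48 against 15.2 to 18.2). MR 40-week replicate 1 stood low in Myh6 (9170.2 against 17369.6 to 21419) and high in Col1a1 (143.6 against 89.2 to 100.8). MR 40-week replicate 4 stood high in Txnrd1 (60.0 against 40.5 to 43.9) and low in Cavin1 (108.6 against 140.4 to 149).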

How the results depend on the processing

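No paired analysis was possible because the labels give the MR 20-week and MR 40-week libraries different numbers, M11 to M15 and M16 to M20, and no pairing. Under every alternative run, no gene called in the main analysis was called in the opposite direction. With a mean of at least 10 required, 5451 genes were tested and 2611 changed, 1348 of them rises; that filter leaves fewer genes to test. Leaving out single libraries gave 3270 to 4662 changed genes, 1850 to 2434 rises and 1420 to 2228 falls. edgeR on recovered reads called 2246 rises and 1912 falls, and DESeq2 2301 and 2129. The deposited scale called 1619 rises and 2686 falls. Beside the fatty acid, glucose, clock, fibroblast and apoptosis lists, the count of rises or that of falls moved by over 1.5 times there, and both (rises first) were 3 and 2 (cardiac stress), 10 and 5 (citric acid cycle), 16 and 4 (mitochondrial biogenesis), 10 and 4 (matrix), 12 and 5 (TGF-beta), 1 and 8 (endothelial markers), 0 and 3 (macrophage markers), 2 and 4 (atrial markers), 1 and 1 (cell cycle), 20 and 5 (insulin signalling), 9 and 4 (hypoxia), 4 and 3 (Hippo pathway), 9 and 0 (immediate early genes), 5 and 4 (unfolded protein response), 5 and 8 (heat shock), 6 and 1 (cytokines), 1 and 35 (proteasome), 8 and 16 (autophagy), 9 and 22 (translation factors) and 6 and 6 (aminoacyl-tRNA synthetases). Cardiac stress rises were 3 with the Sham libraries and 2 with all 24, where heat shock rises were 4 and neutrophil and mast cell falls 2. Library weights gave 13 heat shock rises and 19 antioxidant and 10 interferon falls. Differences that did not pass changed sign under some settings, and the cause was not tested. Nppa gave 0.041 (DESeq2), 0.061 (edgeR), 0.033 (library weights) and -1.10 to 0.042 with single libraries left out. Myh6, Ankrd1 and Gdf15 gave -0.015, -0.112 and -0.039 on the deposited scale. Acta1 and Cpt1b gave 0.10 and 0.121 span-adjusted, and Postn 0.068 with library weights. With single libraries left out the ranges were -0.411 to 0.017 for Acta1, -0.070 to 0.101 for Ankrd1, -0.420 to 0.089 for Postn, -0.087 to 0.034 for Cpt1b and -0.088 to 0.249 for Gdf15. Low genes are limited by depth, and the log2(value + 1) scale understates their folds.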
